A study of Caenorhabditis elegans with 2 samples.

Results

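The genes examined were the protein-coding genes of Caenorhabditis elegans named ceh-, hlh- or fkh-, which encode homeobox, basic helix-loop-helix (bHLH) and forkhead transcription factors. There were 97 of them among 19973 protein-coding genes: 63 homeobox, 25 bHLH and 9 forkhead genes. The rule that picked them used names and annotation and no measured value, but it was written with earlier results of these data known and it singled out hlh-6. Each gene was given a window of 1000 bp on either side of its 5' end, and the peaks with a summit in that window were read from the deposited lists. The lists came from chromatin immunoprecipitation with sequencing (ChIP-seq), in which fragments of DNA carried by a chosen protein are recovered and mapped. The protein was NHR-11, a nuclear hormone receptor, tagged with enhanced green fluorescent protein (eGFP) and expressed from the transgene wgIs305 in strain OP305, whose genotype also listed unc-119(ed3) III. Material was whole late embryos, labelled mixed sex, so a peak cannot be placed in a cell type. The labels do not name the promoter of the transgene. There was 1 group of 2 biological replicates, both labelled with the same strain and transgene, and no untagged or untreated group was analysed here.

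Homeobox, bHLH and forkhead proteins bind DNA and set cell fates during animal development. In the worm embryo they specify neurons, muscle, pharynx and gonad, and many act as terminal selectors that switch on the genes of one cell type. bHLH proteins bind E-boxes (CANNTG) as dimers, and HLH-2, the worm E protein, is a common partner. Nuclear hormone receptors are a separate family of DNA-binding proteins, and the classical binding site of many members in animals is AGGTCA or a close variant.

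The measured quantity was the signal of each peak, a value in the unit of the authors' peak caller that is never negative. It served mainly for describing peaks and ordering them inside their own list. No scaling between lists was stated, so a ratio of signals between the replicates also holds any difference in scale, and ranks are given beside the main values. The list called from both replicates together, the pooled list, held 9931 peaks, replicate 1 held 25795 and replicate 2 held 29222. These lists include background: the median false discovery rate (q-value) of a pooled peak was 0.851, and only 30 pooled peaks, 152 of replicate 1 and 47 of replicate 2 had a rate of at most 0.05. The authors' thresholded list kept 101 pooled peaks, with a lowest signal of 55.2. Read depth was unknown. A gene with a peak in its window is therefore a gene with a listed peak, not a gene shown to be bound.

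The sequences around 5 summits of strong pooled peaks are shown as a description. They are the 2 strongest pooled summits at hlh-6, those at ceh-23 and hlh-11, and 1 inside the fkh-6 gene. Each line holds the 101 bases centred on the summit, from the RefSeq WBcel235 genome, on the plus strand. Capitals mark GAGAGA or the E-box CANNTG on either strand.
hlh-6 intron, chrII:9614425-9614525: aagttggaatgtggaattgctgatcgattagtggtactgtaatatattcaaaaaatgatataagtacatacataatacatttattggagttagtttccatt
hlh-6 upstream, chrII:9615145-9615245: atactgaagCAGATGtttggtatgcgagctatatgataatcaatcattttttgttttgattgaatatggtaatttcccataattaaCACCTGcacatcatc
ceh-23 upstream, chrIII:7839277-7839377: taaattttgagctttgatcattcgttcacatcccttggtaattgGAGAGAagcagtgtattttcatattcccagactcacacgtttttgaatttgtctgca
hlh-11 upstream, chrIII:9619354-9619454: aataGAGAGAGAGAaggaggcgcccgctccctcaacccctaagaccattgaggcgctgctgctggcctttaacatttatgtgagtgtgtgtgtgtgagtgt
fkh-6 intron, chrII:4382009-4382109: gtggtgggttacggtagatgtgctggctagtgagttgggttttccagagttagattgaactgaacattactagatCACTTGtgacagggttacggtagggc
None of the 5 held AGGTCA or GGGTCA. The hlh-6 upstream sequence held 2 E-boxes and the fkh-6 sequence held 1. GAGAGA occurred in the ceh-23 sequence and, as an overlapping run, in the hlh-11 sequence. GC content ranged from 27.7% at the hlh-6 intron to 52.5% at hlh-11. BLAST found no second place in the genome for any of the 5 (matches of 50 bp or longer at 90% identity).

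hlh-6 (chrII:9613463-9614828, minus strand) encodes an achaete-scute type bHLH protein required for the pharyngeal glands. It was the only member with a thresholded summit in its window. That is 1 of 97 members (1.03%), beside 0.36% of all protein-coding genes. Its strongest pooled peak, at chrII:9614297-9614652, had a signal of 59.5 and rank 67, and its summit lay in an intron 353 bp downstream of the 5' end. The replicate peaks under it had signals of 26.5 (rank 477) in replicate 1 and 30.5 (rank 97) in replicate 2. A separate pooled peak upstream, at chrII:9615017-9615372, had a signal of 52.3 and rank 147, with its summit at -367 bp. The replicates differed in which of these sites was the stronger: in replicate 1 the upstream peak led, with a signal of 31.1 (rank 213) against 26.5, and in replicate 2 the intronic peak led, with 30.5 against 25.4 (rank 242). Both sites were present in both replicates. A weaker pooled peak overlapped the upstream one, with a signal of 26.3 (rank 4657) and its summit at -578 bp.

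A further pooled peak of comparable signal lay beyond the hlh-6 window, at chrII:9612951-9613306. Its signal was 50.8 (rank 171), with 29.2 (rank 292) in replicate 1 and 17.7 (rank 1966) in replicate 2. It lay 334 bp past the end of hlh-6 and inside the neighbouring gene T15H9.4, so it cannot be assigned to hlh-6 by position. Within its window, hlh-6 was the only member with 2 separate pooled peaks among the 2000 strongest, a pattern found at 26 of all 19973 protein-coding genes (0.13%). That count was added after the hlh-6 peaks had been seen, so it describes hlh-6 and tests nothing. It also depends on the cut at 2000. ceh-90 had 2 separate pooled peaks just below it, with signals of 31.6 (rank 2005) and 30 (rank 2575). ceh-76 had 2 weaker ones, 23.4 (rank 7501) and 21.9 (rank 9482).

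**Figure D1:**
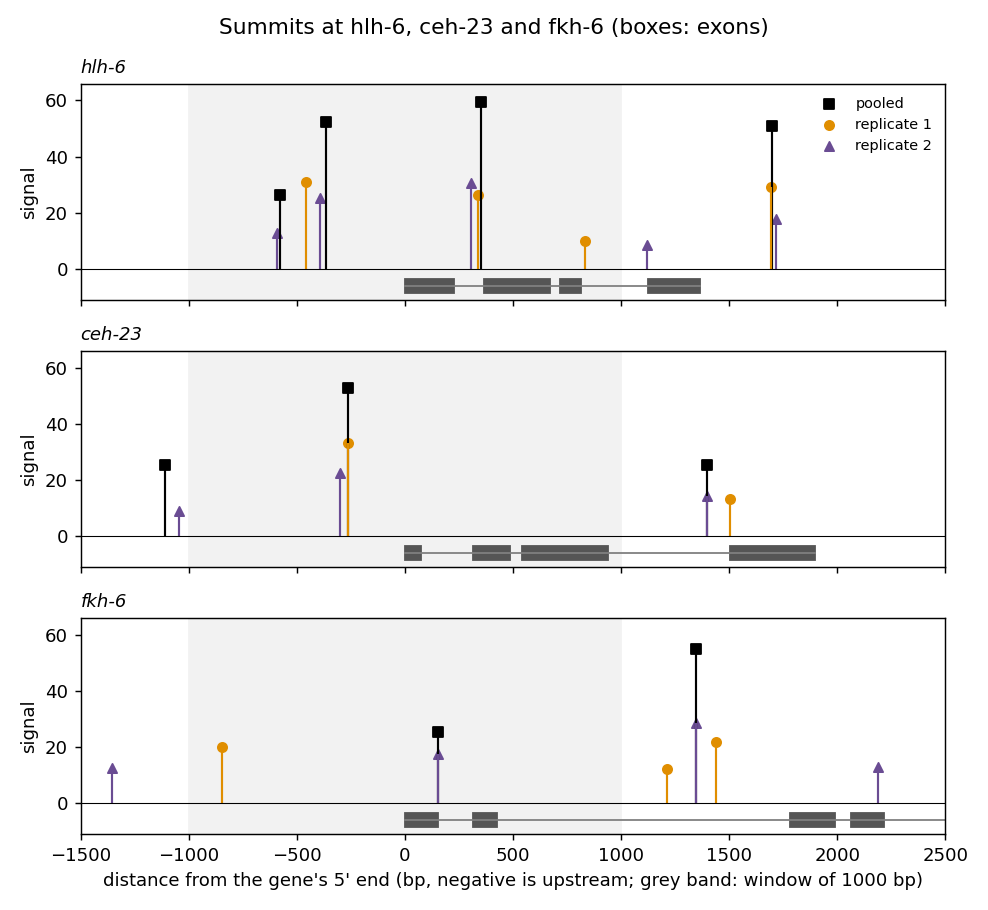
Summits at hlh-6, ceh-23 and fkh-6 in the pooled list and both replicates, with signal in the caller's unit on the vertical axis and distance from the 5' end in bp on the horizontal axis; boxes are exons and the grey band is the window of 1000 bp. hlh-6 has strong pooled summits on either side of its 5' end (59.5 and 52.3), ceh-23 has 1 strong summit upstream (52.8), and the strongest fkh-6 summit (54.9) lies outside the window.

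Across the 3 families, 32 of 97 members had a peak in the window in both replicates, a share of 33% (95% Wilson interval 24.4% to 42.8%), beside 27.1% of all protein-coding genes. Overlapping replicate peaks, here called a same site, were found at 21 members (21.6%, interval 14.6% to 30.8%), beside 18.7% of all protein-coding genes. A pooled peak was also found at 21 members (21.6%, interval 14.6% to 30.8%), beside 20.7%. In each case the interval, which covers counting error only, included the share of all protein-coding genes, so the families as a whole were not distinguished from other genes at this number of members. A further 35 members (36.1%) had a peak in a single replicate, 15 in replicate 1 and 20 in replicate 2, beside 40.4% of all protein-coding genes (3596 in replicate 1 and 4473 in replicate 2). The other 30 members (30.9%) had a peak in neither, beside 32.5% of all genes.

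The shares of the families lay close together. Both replicates had a peak at 21 of 63 homeobox genes (33.3%), 8 of 25 bHLH genes (32%) and 3 of 9 forkhead genes (33.3%). Same sites were found at 14 homeobox (22.2%), 5 bHLH (20%) and 2 forkhead genes (22.2%). The families were further apart in the genes without any peak, 17 of 63 homeobox (27%), 11 of 25 bHLH (44%) and 2 of 9 forkhead genes (22.2%). No test was made between families. For reference, the nuclear hormone receptor genes named nhr- had a peak in both replicates at 86 of 269 (32%), and the cytosolic ribosomal protein genes named rpl- or rps- at 42 of 78 (53.8%, interval 42.9% to 64.5%). The interval for the ribosomal protein genes began just above the upper end of that for the 3 families.

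**Figure D2:**
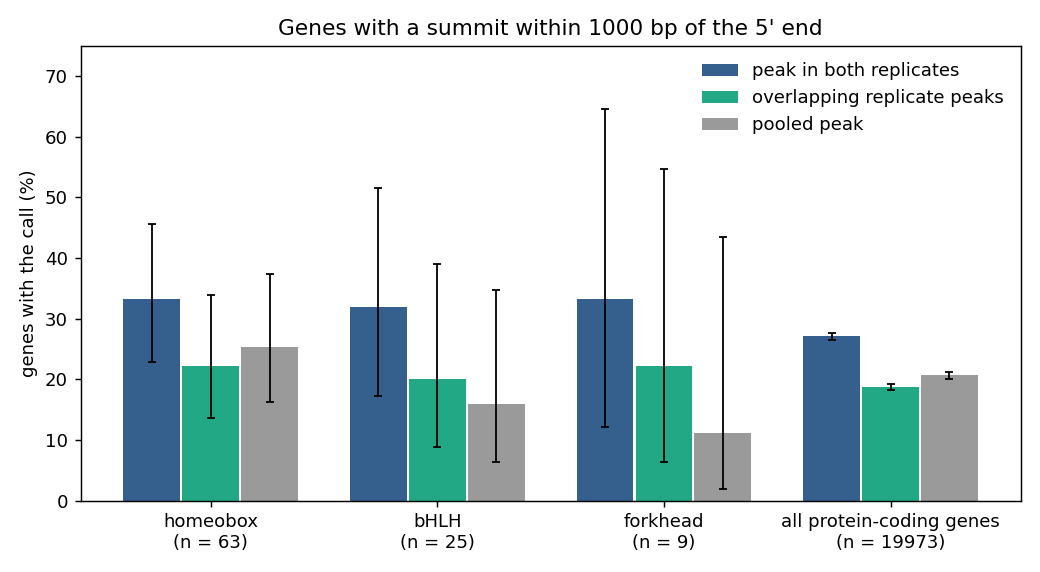
Share of genes (%) with a summit within 1000 bp of the 5' end in both replicates, at the same site and in the pooled list, for each family and for all protein-coding genes; error bars are 95% Wilson intervals. The family shares in both replicates, 33.3%, 32% and 33.3%, lie close together and their error bars include the 27.1% of all protein-coding genes.

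Among members with a peak the median signal was 13.5 in replicate 1, 12.9 in replicate 2 and 29.1 in the pooled list. The corresponding medians over all protein-coding genes with a peak were 13.4, 11.4 and 26.5. Expressed as a rank in percent of the list, where low is strong, the members' medians were 42.6% in replicate 1, 27.2% in replicate 2 and 29.8% in the pooled list, beside 43.6%, 41.5% and 45.1% over all protein-coding genes with a peak. The members' median peak thus ranked higher in replicate 2 and in the pooled list and about the same in replicate 1, and no test was made. At the top of the lists, only hlh-6, ceh-23 and ceh-58 had a peak among the 2000 strongest of both replicates. That is 3 of 97 (3.09%, interval 1.06% to 8.70%), beside 1.02% of all protein-coding genes. The lower end of this interval lay just above that share, which was not tested. The rule singled out hlh-6 with earlier results known, so this count and the thresholded one are not independent of how the members were chosen. Only 1 member's strongest window peak had a false discovery rate of at most 0.05 in any list, the replicate 1 peak of ceh-23 at 0.0421.

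Replicate signals at the 32 members with a peak in both varied by an SD of 0.48 in the log2 ratio of replicate 1 to replicate 2. The mean ratio was 0.05. Over all protein-coding genes with a peak in both, the SD was 0.53 and the mean 0.23. Across these 32 genes the log2 signals gave a Pearson's r of 0.50 and a Spearman's rho of 0.42. Both are descriptions across genes that share the same pair of libraries. Over the 5418 protein-coding genes with a peak in both, r was 0.27 and rho was 0.17. For the 21 members with a same site, r was 0.36, rho 0.36 and the SD 0.55. Over all protein-coding genes with a same site, r was 0.32, rho 0.20 and the SD 0.53. At the 21 same sites the replicate summits lay 1 to 331 bp apart, with a median of 63 bp. For 11 members the peaks of the replicates did not overlap, and their strongest peaks were up to 1294 bp apart. A peak in both replicates did not then mean a shared site. This was common over all genes too: 3739 of the 5418 protein-coding genes with a peak in both had a same site, beside 21 of the 32 members.

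**Figure D3:**
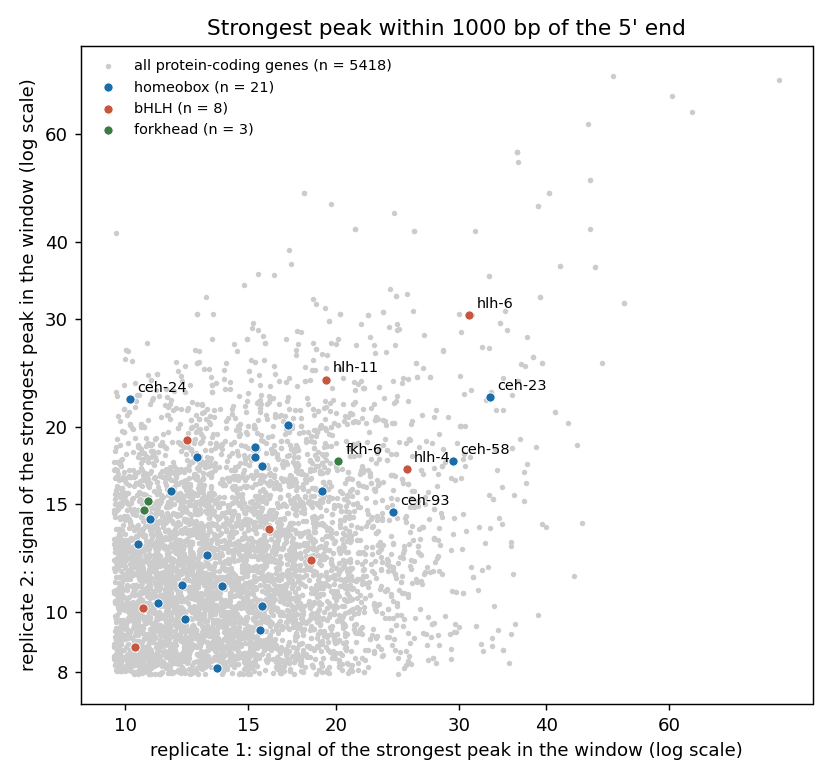
Signal of the strongest window peak in replicate 1 (horizontal, log scale) and replicate 2 (vertical, log scale) for the 32 members with a peak in both, coloured by family, over all protein-coding genes with a peak in both (grey). hlh-6 (31.1 and 30.5) and ceh-23 (33.2 and 22.4) stand at the upper right, while most members lie below 20 in both replicates.

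Among homeobox genes, ceh-23 had the strongest pooled peak. It encodes a homeodomain protein made in several head neurons, among them the AIY interneuron. Its peak at chrIII:7839149-7839504 had a pooled signal of 52.8 (rank 140), with 33.2 (rank 155) in replicate 1 and 22.4 (rank 505) in replicate 2. The summit lay in intergenic DNA 265 bp upstream of the 5' end, and the replicate summits were 38 bp apart. This signal was below the lowest of the thresholded list, 55.2.

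ceh-58 had the next strongest homeobox peak, in an intron 203 bp downstream of the 5' end. Its signals were 43.8 in the pooled list (rank 357), 29.4 in replicate 1 (rank 282) and 17.6 in replicate 2 (rank 1993). ceh-58 and ceh-23 thus both ranked higher in replicate 1 than in replicate 2. After these, pooled signals of homeobox genes dropped to 32.8 and below, the first of these at rank 1672.

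The following 6 homeobox genes by pooled signal were ceh-91, ceh-90, ceh-24, ceh-5, ceh-37 and ceh-17, with pooled signals of 32.8, 31.6, 31.6, 30.7, 30.7 and 29.1. ceh-24 encodes an NK-2 type homeodomain protein, ceh-37 an Otx type protein needed for the identity of the AWB olfactory neurons, and ceh-17 a Phox2 type protein needed in the ALA neuron. The replicate peaks under the pooled peak had signals of 15.3 and 17.9 at ceh-91, 15.3 and 13.7 at ceh-90, and 13.9 and 15.8 at ceh-37, with replicate 1 first. The ceh-24 site differed most in rank: its signal was 10.2 (rank 23103) in replicate 1 and 22.2 (rank 530) in replicate 2, the largest gap in rank of any member. At ceh-5 the values were 17.1 and 20.2, and at ceh-17 they were 10.3 and 15.7. The ceh-5 summit, 572 bp upstream, lay in an intron of the neighbouring gene ocrl-1. A second pooled peak of ceh-90, 705 bp downstream, had a signal of 30 (rank 2575). The signals under it were 12.3 (rank 14525) in replicate 1 and 18.6 (rank 1534) in replicate 2.

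The strongest peaks of ceh-93 overlapped between the replicates, with 24.1 (rank 815) in replicate 1 and 14.5 (rank 5036) in replicate 2. Its pooled peak, chrX:388186-388541, lay in an intron 433 bp downstream and had a signal of 28.2. Under it lay the same replicate 1 peak but another, weak one of replicate 2, with a signal of 9.26 (rank 21312). ceh-75, with replicate signals of 15.7 and 17.3, had a pooled signal of 24.7. ceh-51, an NK type gene that acts in the early mesoderm, had weak peaks at the same site and no pooled peak in the window: the signal was 13.5 (rank 10977) in replicate 1 and 8.10 (rank 28089) in replicate 2.

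The 21 homeobox genes with a peak in both replicates were, at the same site, ceh-5, ceh-13, ceh-17, ceh-20, ceh-23, ceh-24, ceh-37, ceh-51, ceh-58, ceh-75, ceh-90, ceh-91, ceh-93 and ceh-100, and without a shared site ceh-1, ceh-18, ceh-40, ceh-62, ceh-74, ceh-76 and ceh-82. Their strongest signals ranged from 10.2 to 33.2 in replicate 1 and from 8.10 to 22.4 in replicate 2. A peak in replicate 1 alone was found at 11 genes: ceh-10, ceh-14, ceh-19, ceh-22, ceh-27, ceh-33, ceh-38, ceh-41, ceh-43, ceh-57 and ceh-86. The strongest of these was that of ceh-57, with a signal of 23.1 (rank 1041), and the weakest that of ceh-22, the NK-2 type gene of pharyngeal muscle, with 9.63 (rank 25787). A peak in replicate 2 alone was found at 14 genes: ceh-8, ceh-21, ceh-28, ceh-34, ceh-39, ceh-45, ceh-48, ceh-49, ceh-54, ceh-81, ceh-83, ceh-84, ceh-88 and ceh-89. These ranged from 8.75 at ceh-48 to 17.7 (rank 1954) at ceh-8.

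By homeobox class the members with peaks were spread out. Of 12 NK and NK-linked genes 4 had a peak in both replicates, as did 2 of 8 paired-like genes, which include the neuronal regulators ceh-17 and ceh-37, and 2 of 3 TALE genes, ceh-20 and ceh-40, which encode Pbx type cofactors of Hox proteins. The ceh-20 signals were 15.7 in replicate 1 (rank 6598) and 10.3 in replicate 2 (rank 16589). Of 5 Hox and extended Hox genes only ceh-13, the labial type Hox gene used in the anterior embryo, had a peak in both. ceh-13 had signals of 10.9 (rank 19875) and 14.2 (rank 5603), and a pooled signal of 28.9 at chrIII:7554967-7555322, 515 bp upstream. None of the 6 CUT genes found (ceh-44 was not used here) and none of the 3 genes of the sine oculis class (ceh-32, ceh-33 and ceh-34) had a peak in both replicates, although 2 CUT genes, ceh-38 and ceh-21, had a pooled peak. ceh-34 is a regulator of pharyngeal neurons.

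The remaining 23 homeobox genes, which were in none of the class lists, had a peak in both replicates at 11 (47.8%, interval 29.2% to 67%) and a pooled peak at 9 (39.1%, interval 22.2% to 59.2%). The lower ends of these intervals lay above the 27.1% and 20.7% of all protein-coding genes. These genes were left over from the class lists, several such lists were counted, and no test was made, so the share is a description. They include both ceh-23 and ceh-58, and also poorly studied genes such as ceh-90, ceh-91 and ceh-93.

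The 17 homeobox genes without a peak in either replicate were ceh-2, ceh-6, ceh-7, ceh-9, ceh-12, ceh-16, ceh-30, ceh-31, ceh-32, ceh-36, ceh-53, ceh-60, ceh-63, ceh-79, ceh-87, ceh-92 and ceh-99. Several have well known embryonic roles: ceh-16 is the worm engrailed gene, ceh-36 encodes an Otx type protein of the ASE and AWC sensory neurons, and ceh-6 encodes a POU protein of neurons and the excretory cell. For ceh-6 this depended on the window edge: a pooled summit with a signal of 41.5 (rank 480) lay 1133 bp from its 5' end, inside the gene. It was not alone. With a window of 2000 bp, ceh-7, ceh-9, ceh-16, ceh-30, ceh-31 and ceh-32 also had a peak in both replicates.

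Among bHLH genes, 4 had a pooled peak: hlh-6, hlh-11, hlh-4 and hlh-2. hlh-11, which encodes a leucine-zipper bHLH protein related to AP4, had signals of 44.9 in the pooled list (rank 320), 19.3 in replicate 1 (rank 2684) and 23.9 in replicate 2 (rank 338). Its summit, in the peak chrIII:9619226-9619581, lay in intergenic DNA 307 bp upstream. hlh-4, an achaete-scute type gene required for the ADL sensory neurons, had 40.4 in the pooled list (rank 561), 25.3 in replicate 1 (rank 629) and 17.1 in replicate 2 (rank 2312).

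The hlh-4 peak, chrIII:9739053-9739408, lay 177 bp upstream in the annotated 3' UTR of the neighbouring gene T05G5.1. hlh-2 had a weaker peak, chrI:7194698-7195053, 956 bp upstream and close to the window edge. Its signals were 26.2 in the pooled list (rank 4688), 16.1 in replicate 1 and 13.7 in replicate 2. hlh-10 had replicate peaks at the same site and no pooled peak, with signals at that site of 18.5 (rank 3395) in replicate 1 and 10.3 (rank 16476) in replicate 2. Its strongest replicate 2 peak, 12.2, lay elsewhere in the window.

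hlh-1, the worm MyoD gene of body wall muscle, had a peak in both replicates but at different places. The signal was 12.3 (rank 14604) at 586 bp in replicate 1 and 19.1 (rank 1304) at 108 bp in replicate 2, both downstream of the 5' end, and there was no pooled peak. hlh-12 and hlh-31 likewise had peaks in both without a shared site. In replicate 1 alone, hlh-8, hlh-14, hlh-15 and hlh-16 had peaks with signals of 11 to 12.5, and in replicate 2 alone hlh-3 had 13 and hlh-28 had 12.3. hlh-8 is the worm Twist gene of the postembryonic mesoderm, and hlh-3 and hlh-14 are achaete-scute type genes of neuronal lineages. By class, 2 of 5 achaete-scute genes, both of the MyoD and E protein genes, 1 of 4 Olig-like, 1 of 2 leucine-zipper and 0 of 3 Twist and Hand-like genes had a peak in both replicates. The share of all protein-coding genes was 27.1%. Of these class intervals only that of the MyoD and E protein genes (2 genes, 34.2% to 100%) did not include it, and classes were not tested.

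The bHLH genes without a peak in either replicate were 11: hlh-13, hlh-17, hlh-19, hlh-25, hlh-26, hlh-27, hlh-29, hlh-30, hlh-32, hlh-33 and hlh-34. hlh-30 encodes the TFEB type regulator of lysosome and autophagy genes. When the 5' ends of all its transcripts were used, hlh-30 did have replicate peaks at the same site and a pooled peak. Among the 5 REF-1 family genes, hlh-25 to hlh-29, only hlh-28 had a peak, in replicate 2. Near-identical copies limit what can be read there: 91.4% of the window of hlh-28 and of hlh-29 matched another place in the genome, as did 70.7% at hlh-27 and 70.5% at hlh-25. Such matches covered over 10% of the window at 20 of 97 members and were absent at 63. How the authors placed reads with several matches was not given in the sources used here, so the lack of a listed peak at these genes is uncertain.

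**Figure D4:**
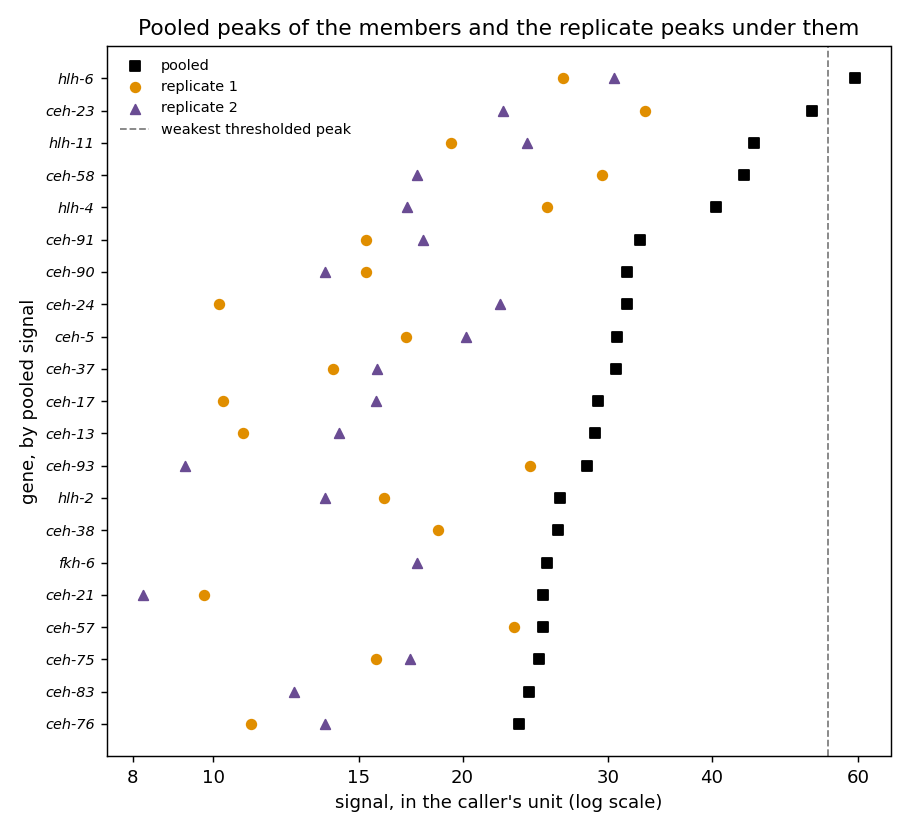
The 21 members with a pooled peak, ordered by pooled signal, with the signals of the pooled peak and of the strongest replicate peak under it (horizontal, caller's unit, log scale). The top 5 members, hlh-6, ceh-23, hlh-11, ceh-58 and hlh-4, have pooled signals over 40, and the other 16 lie below 33.

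Of the 9 forkhead genes, 7 had a peak in replicate 2 (77.8%, interval 45.3% to 93.7%) and 3 in replicate 1 (33.3%, interval 12.1% to 64.6%), and the 3 were also among the 7. Both intervals included the shares of all protein-coding genes, 49.5% and 45.1%. fkh-7, a FoxP type gene, had signals of 10.8 (rank 20214) in replicate 1 and 15.2 (rank 4131) in replicate 2, with overlapping peaks 52 bp downstream and 62 bp upstream of the 5' end. fkh-2 had 10.6 (rank 20870) and 14.7 (rank 4873), also overlapping. In both genes this replicate 1 peak was among the weaker ones of its list. Deeper in fkh-7, in an intron 14700 bp downstream, lay a pooled peak with a signal of 38.1 (rank 769). The signals under it were 23.4 (rank 964) in replicate 1 and 12.9 (rank 8152) in replicate 2.

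fkh-6, which acts in the development of the somatic gonad, had the only pooled forkhead peak in the window, with a signal of 25.3 (rank 5463) in a coding exon 155 bp downstream. Its replicate peaks did not coincide: the signal was 20.2 (rank 2170) in replicate 1 at 847 bp upstream and 17.6 (rank 1973) in replicate 2 at 155 bp downstream. Its strongest peak lay deeper in the gene, outside the window. The peak chrII:4381881-4382236, in an intron 1347 bp downstream, had a pooled signal of 54.9 (rank 107), with 22 (rank 1366) in replicate 1 and 28.5 (rank 138) in replicate 2. This is just under the lowest thresholded signal of 55.2, and the same position lies inside the gene B0286.1.

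In their windows the other forkhead genes had less. fkh-4 (11.9), fkh-8 (9.59), fkh-9 (8.01) and fkh-10 (15.6, rank 3692) had a peak in replicate 2 alone, and fkh-3 and fkh-5 had none. Outside the window, in an intron of fkh-9 2759 bp downstream, a pooled peak had a signal of 32.1 (rank 1851). It had 24.4 (rank 768) in replicate 1 and no peak in replicate 2. fkh-8 is known as a regulator of ciliated sensory neurons. Of the fkh-3 and fkh-4 windows, 72.3% and 52.9% matched other places in the genome.

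Where the pooled summits lay resembled the pattern of all genes. Of the 21 summits 15 were upstream of the 5' end, and the median distance was 353 bp, beside 61.7% upstream and a median of 395 bp over the 4127 protein-coding genes with a pooled peak. Of these summits 12 were intergenic, 5 in introns, 2 in 5' UTRs, 1 in a coding exon and 1 in a 3' UTR. The member's own 5' end was the nearest at 20 of the 21, the exception being ceh-21, whose summit lay 153 bp from T26C11.9. Replicate peaks lay under 17 of the pooled peaks in both replicates and under the other 4 in a single replicate: ceh-38 and ceh-57 in replicate 1, ceh-83 and fkh-6 in replicate 2. No peak was shared by 2 members.

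**Figure D5:**
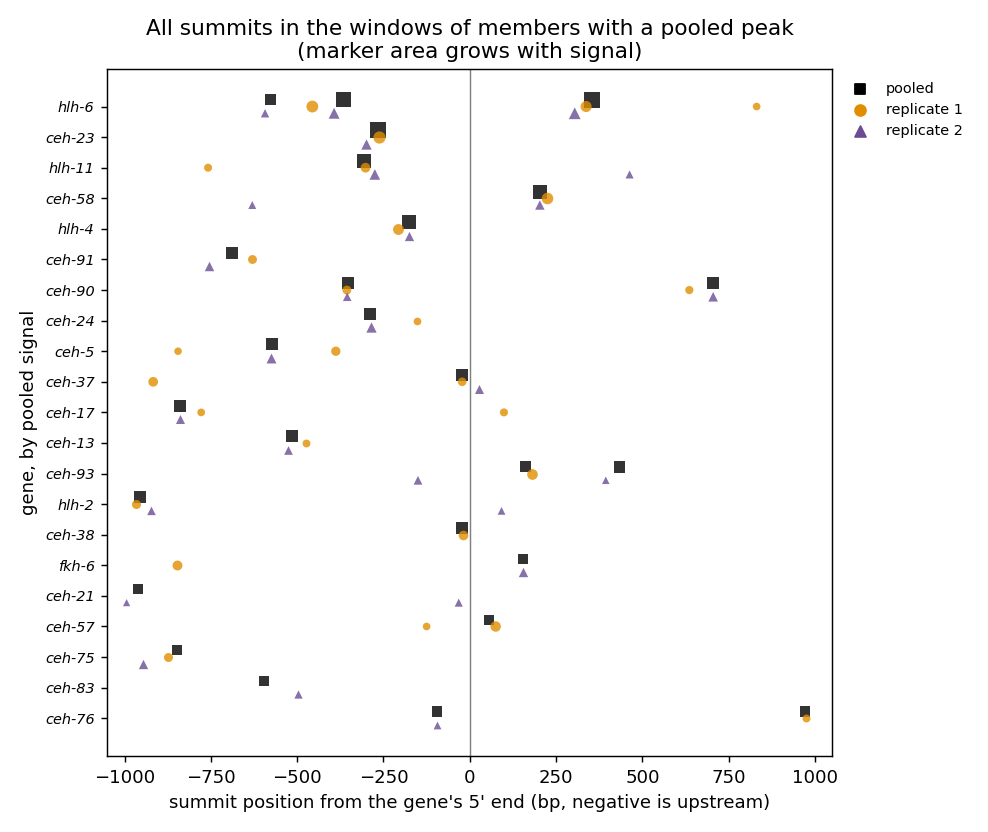
Positions of all summits in the windows of the 21 members with a pooled peak, in bp from the 5' end (negative is upstream), by list, with marker area growing with signal. Pooled and replicate summits stack at the upstream sites of ceh-23, hlh-11 and hlh-4, and hlh-6 shows 2 stacks.

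A few pooled summits fell just outside the window. hlh-17 had one at 1027 bp (signal 25.7), ceh-51 at 1037 bp (25.1), ceh-9 at 1083 bp (30.4) and ceh-6 at 1133 bp (41.5). Just inside were ceh-76 at 971 bp (23.4), ceh-21 at 960 bp (25) and hlh-2 at 956 bp (26.2). ceh-6 was the only one of these with a signal over 40.

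Peaks inside the gene bodies were about as frequent as over all genes: 20 of 97 members (20.6%) had a pooled summit between the gene's ends, beside 20.4% of all protein-coding genes, with median gene lengths of 2068 and 2027 bp. After those of hlh-6, fkh-6 and ceh-58, which are given above, the strongest were those of hlh-30 at 43.5 (rank 367; 33.8 in replicate 1 and no peak in replicate 2), ceh-6 at 41.5 (29 and 12.5) and ceh-18 at 40.9 (18.2 and 20.5). ceh-18 encodes a POU protein of the gonadal sheath that acts in oocyte maturation. After ceh-18 came the fkh-7 peak of 38.1 (rank 769) given above. Inside ceh-57 a pooled peak of 36.6 (rank 927) rested on replicate 1, where the signal was 38.2 (rank 57), with no peak in replicate 2. hlh-30, ceh-6, ceh-16 and hlh-17 had an internal pooled peak but none in their windows in either replicate. For hlh-30 this depended on which annotated 5' end was used.

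By chromosome, members on III had same sites at 6 of 12 (50%, interval 25.4% to 74.6%), beside 20.9% of all protein-coding genes there, and 3 of the 5 strongest pooled peaks (ceh-23, hlh-11 and hlh-4) were on this chromosome. On X, where 28 members lie, same sites were found at 4 (14.3%, interval 5.70% to 31.5%), beside 21.6% of all X genes. The chromosomes were counted after the members were chosen and were not tested.

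Genes of the same protein families that lack these prefixes were counted in the same way. Of 58 such genes 19 (32.8%, interval 22.1% to 45.6%) had a peak in both replicates, 16 (27.6%) at the same site and 17 (29.3%) a pooled peak, beside 27.1%, 18.7% and 20.7% of all protein-coding genes, and none had a thresholded summit. A peak in both was found at 11 of 36 homeobox (30.6%), 7 of 16 bHLH (43.8%) and 1 of 6 forkhead genes (16.7%). In replicate 2 a peak was found at 14 of 16 bHLH genes without the prefix (87.5%, interval 64% to 96.5%). The hlh- genes had one at 10 of 25 (40%, interval 23.4% to 59.3%), beside 49.5% of all protein-coding genes. In replicate 1 the order was reversed, with 7 of 16 (43.8%) against 12 of 25 hlh- genes (48%), beside 45.1% of all protein-coding genes. Neither difference was tested. pha-4, the FoxA gene that specifies the pharynx, had 38.2 in the pooled list (rank 758), 26.2 in replicate 1 (rank 509) and 12.5 in replicate 2 (rank 8986). pal-1, the caudal gene, had 34.4, 18.1 and 12 in the same order, and the Hox gene mab-5 had 29.3, 16.7 and 14.9. The Hox gene lin-39 and the LIM homeobox gene mec-3, which specifies touch neurons, had no peak in either replicate.

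Motif counts near the members' summits were small, and each share was above that of all pooled summits. The differences were not tested. Within 50 bp of the 21 pooled summits, AGGTCA or GGGTCA occurred at 2 (9.52%), GAGAGA at 2 (9.52%) and CANNTG at 8 (38.1%). The shares over all 9931 pooled summits were 3.65%, 7.66% and 29.2%. In the promoters, taken as 250 bp before to 50 bp after the 5' end, the members held these at 13.4%, 27.8% and 73.2%, beside 12.6%, 21.8% and 69.4% of all 19973 protein-coding genes. Motifs were searched on both strands, matches may overlap, and a match is a description of the letters only.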

How the data were processed

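The authors called a list on ce11 for each replicate against a control, a pooled list from the reads of both, and a thresholded list based on all of them, according to descriptions deposited beside the files. Each peak carries the authors' signal, in an unstated unit, and a deposited −log10 column, read from its format and values as a q-value and turned back into a rate. For the aligner, the caller and their settings, nothing is given in the sources used here. Per the labels, the size range was 150 to 350. The control and the ce10 lists were not used here.

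Gene 5' ends came from Ensembl release 115 (WBcel235), the same assembly as ce11, and sequence from RefSeq WBcel235. A peak was assigned to a gene where its summit lay within 1000 bp of the 5' end, and replicate peaks overlapping by at least 1 bp were a same site. Repeated sequence was found with BLAST 2.17.0. The computations used Python 3.11.15, numpy 2.4.6, pandas 2.3.3, scipy 1.17.1 and matplotlib 3.10.9, and the window assignment was tested on simulated data. With 1 group and 2 replicates no test was made; counts stand beside the share of all protein-coding genes, with 95% Wilson intervals for counting error only. The members and lists were chosen with earlier results of these data known. Named were members with a thresholded summit, the 8 strongest pooled and 5 best-ranked same sites per family, all forkhead genes, up to 10 members per family without a peak, and the 5 largest rank gaps. Other names were chosen after their values were seen. The alternatives were windows of 500 and 2000 bp, the 2000 strongest peaks only, transcript 5' ends, 50% reciprocal overlap and leaving out either replicate. The sequence of 1 further summit is not reported here.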

Additional observations from a re-analysis of the deposited data

How the results depend on the processing

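Counts of members scaled with the window and the depth of the list, as did those of all protein-coding genes. With a window of 500 bp, a peak in both replicates was found at 7 homeobox, 4 bHLH and 1 forkhead genes, 12 members in all (12.4%, beside 13.3% of all protein-coding genes, so that members then lay below the other genes). Same sites fell to 12 (12.4%, beside 11.2% of all genes) and pooled peaks to 13 (13.4%, beside 13.2%). With 2000 bp the counts were 35 homeobox, 11 bHLH (44%) and 5 forkhead genes, 51 members (52.6%, beside 50.2% of all genes), 32 same sites (33%, beside 30.9%) and 37 pooled peaks (38.1%, beside 33.2%); the bHLH share then lay below that of all genes. Using the 2000 strongest peaks only left 2 homeobox, 1 bHLH and 0 forkhead genes, 3 members (3.09%, beside 1.02% of all genes). It left 3 same sites (3.09%, beside 0.891%) and 6 pooled peaks (6.19%, beside 4.9%). When either replicate was left out, a peak in the other sufficed. Overlap cannot be called from 1 replicate, so the same-site count then equalled the count of genes with a peak by definition. The counts were 32 to 35 homeobox, 10 to 12 bHLH and 3 to 7 forkhead genes, 47 to 52 members in all. Beside them stood 49.5% of all genes without replicate 1 and 45.1% without replicate 2. bHLH genes lay below the former (40%) and forkhead genes below the latter (33.3%). Taking the 101 strongest peaks of 1 replicate as the thresholded list gave 0 to 1 members. hlh-6 was there in replicate 2 (1.03%, beside 0.33% of all genes) and not in replicate 1 (0%, beside 0.315%), where it ranked 213. Transcript 5' ends and 50% reciprocal overlap left every count within 1.5 times its value. Transcript 5' ends added ceh-8, ceh-22, ceh-57 and hlh-30 to the genes with a peak in both replicates. They added ceh-8 and hlh-30 to those with a same site and to those with a pooled peak. No paired analysis was possible because there was only 1 group. Unknown depth, lists that reach into background and 2 replicates limit every count.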
